A study of Rattus norvegicus with 9 samples.

Results

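Inflammatory cytokines and their receptors were followed in RNA from whole tibias of ovariectomized rats. The 10 genes were chosen by name and cover the ligands Il1a, Il1b, Il6, Tnf and Il18, the receptor antagonist Il1rn, and the receptors Il1r1, Il6r, Tnfrsf1a and Il17ra. All 10 were listed among the 22589 genes of the deposited tables, 9 had counts in at least 1 rat, and 8 had enough counts to be tested beside the other genes of the 14520 tested.

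The series holds RNA-seq of the left tibia of 9 female Sprague-Dawley rats, 9 weeks old when purchased, with 3 rats in each of 3 groups. Rats of the RE/Ovx group had both ovaries removed and later climbed a ladder with a load tied to the tail for 12 weeks, after a period of adaptation. Rats of the NE/Ovx group had both ovaries removed and did not exercise, and rats of the Sham group had a small piece of fat near the ovary removed and did not exercise. All tibias were taken 24 weeks after the operation and freed of skin, muscle, ligaments and tendons, which leaves bone with its marrow. Skeletal muscle RNA was nevertheless found in each library, with a summed level of 12 muscle markers of 2110 to 3537 CPM in RE/Ovx rats, 4949 to 5810 CPM in NE/Ovx rats and 1956 to 6206 CPM in Sham rats (CPM, counts scaled by the effective size of the library). No exercised rat with ovaries was among the samples used here. An effect of climbing alone therefore has no group of its own here.

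Loss of estrogen is known to raise the output of interleukin-1, interleukin-6 and TNF from immune and stromal cells of the marrow, and these cytokines drive the formation of osteoclasts, the cells that resorb bone. The IL-1 family works through a pair of agonists, IL-1 alpha and IL-1 beta, which bind the receptor IL-1R1, and through a natural antagonist, IL-1Ra, the product of Il1rn, which occupies the same receptor without signalling. IL-6 binds IL-6R, which signals through the shared subunit gp130. TNF signals through the receptor encoded by Tnfrsf1a, IL-17 through a complex that contains IL-17RA, and the signals of IL-1, TNF and IL-17 meet at the transcription factor NF-kappaB.

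The stretch before the start site of each gene is shown where the results below turn on it: Il1b and Il1rn because they encode an agonist and the antagonist of 1 receptor, Il6r because its RNA was lower in RE/Ovx than in Sham, and Il1r1 because its RNA ran opposite to that of Il6r and Il1rn across rats. The 250 bases before the start site were taken from RefSeq (build GRCr8), which holds entries for 9 of the 10 genes. Il17ra, also lower in RE/Ovx than in Sham, had no entry there and is not shown. The bases are written 5′ to 3′ along the gene's strand, with capitals marking every match to the motifs searched.
Il1b (GRCr8, chr3:137036582-137036831, minus strand): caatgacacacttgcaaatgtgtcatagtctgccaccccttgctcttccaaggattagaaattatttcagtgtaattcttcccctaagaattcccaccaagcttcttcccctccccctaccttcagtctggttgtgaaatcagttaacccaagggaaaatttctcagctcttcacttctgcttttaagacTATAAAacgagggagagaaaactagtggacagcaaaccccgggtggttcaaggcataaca
Il1rn (GRCr8, chr3:27520072-27520321, plus strand): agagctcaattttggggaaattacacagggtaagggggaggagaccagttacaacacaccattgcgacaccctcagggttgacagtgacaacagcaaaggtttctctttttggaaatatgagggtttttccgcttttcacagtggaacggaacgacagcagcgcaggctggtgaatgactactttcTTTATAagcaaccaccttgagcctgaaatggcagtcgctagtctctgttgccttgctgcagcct
Il6r (GRCr8, chr2:177645210-177645459, minus strand): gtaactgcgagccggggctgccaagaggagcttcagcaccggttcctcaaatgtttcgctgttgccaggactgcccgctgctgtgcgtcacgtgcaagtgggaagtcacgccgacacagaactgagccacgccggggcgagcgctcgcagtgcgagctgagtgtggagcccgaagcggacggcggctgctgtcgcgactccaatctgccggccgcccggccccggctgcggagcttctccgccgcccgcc
Il1r1 (GRCr8, chr9:50034133-50034382, plus strand): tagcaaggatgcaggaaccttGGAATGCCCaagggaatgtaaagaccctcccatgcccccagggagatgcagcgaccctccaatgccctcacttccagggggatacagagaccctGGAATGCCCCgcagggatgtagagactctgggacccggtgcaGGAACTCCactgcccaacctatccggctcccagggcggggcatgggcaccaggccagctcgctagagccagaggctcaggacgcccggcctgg
The motifs were the NF-kappaB consensus of 10 bases, a pair of shorter NF-kappaB-like patterns with the letters GGGNNTTCC and GGANTTCC, the TATA box TATAAA and the AP-1 letters TGANTCA, each searched on both strands of windows of 300 bases that also include 50 bases after the start site. Il1b holds TATAAA 60 bases before its start site, and Il1rn holds the same letters on the opposite strand, beginning 64 bases before its start site. Il1r1 holds GGGNNTTCC at 229 and 135 bases and GGANTTCC at 93 bases before its start site, all on the opposite strand, and the match at 135 bases is also part of a match to the consensus. In the Il6r window none of these letters was found. Over the 9 promoters, TATAAA was in 4 (Il1a, Il1b, Il1rn and Tnf) and TGANTCA in 2 (Il1a and Il18), while the NF-kappaB consensus was in 2 (Il1r1 and Il6) and each shorter pattern in 1 (Il1r1). The match in Il6 begins 68 bases before its start site. Among all 33469 promoters of the table, 14.2% held TATAAA, 7.33% TGANTCA, 7.51% the NF-kappaB consensus, 5.92% GGGNNTTCC and 4.59% GGANTTCC. A match describes letters and is not a known binding site.

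The libraries held 12297992 to 16671533 counts each, and levels are given in CPM unless FPKM is named. Each gene was tested by the quasi-likelihood method of edgeR, fitted to the 9 rats together. A gene was called when its Benjamini-Hochberg adjusted p, taken over all tested genes, was under 0.05. With 3 rats against 3, an exact permutation test of a single value cannot give a p below 0.1. The 3 comparisons share rats, so their results for a gene are not independent of each other. Markers of bone cells were abundant, with a summed level of 12 osteoblast genes of 20112 to 32460 CPM in the RE/Ovx group, 18222 to 29741 CPM in NE/Ovx rats and 7685 to 10781 CPM in the Sham group. Most of each sum was Col1a1, at 15607 to 25414 CPM in RE/Ovx, 14462 to 23781 CPM in NE/Ovx and 5239 to 7466 CPM in Sham rats.

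Receptor genes held the 3 highest median levels of the 10, above every ligand. On the FPKM scale, which divides by gene length and so allows genes to be compared, Il17ra had the highest level, with a median of 151 FPKM over the 9 rats (range 108 to 193). Tnfrsf1a followed with a median of 40.6 FPKM (33.7 to 41.4) and Il6r with 17.8 FPKM (11.8 to 20.4). The ranges of these 3 receptor genes did not overlap.

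Il1b, the main secreted IL-1 agonist, had a median of 12.8 FPKM (9.20 to 18.9), in a range that overlapped that of Il6r above it. Il1rn had a median of 9.34 FPKM (5.32 to 12.8), Il18, whose product induces interferon gamma in lymphocytes, 6.60 FPKM (4.93 to 7.90), and Il1r1 5.07 FPKM (3.79 to 6.94). Each of these 4 genes overlapped its neighbour in this order. Il1a lay below them without overlap, with a median of 0.964 FPKM (0.631 to 1.63).

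**Figure D1:**
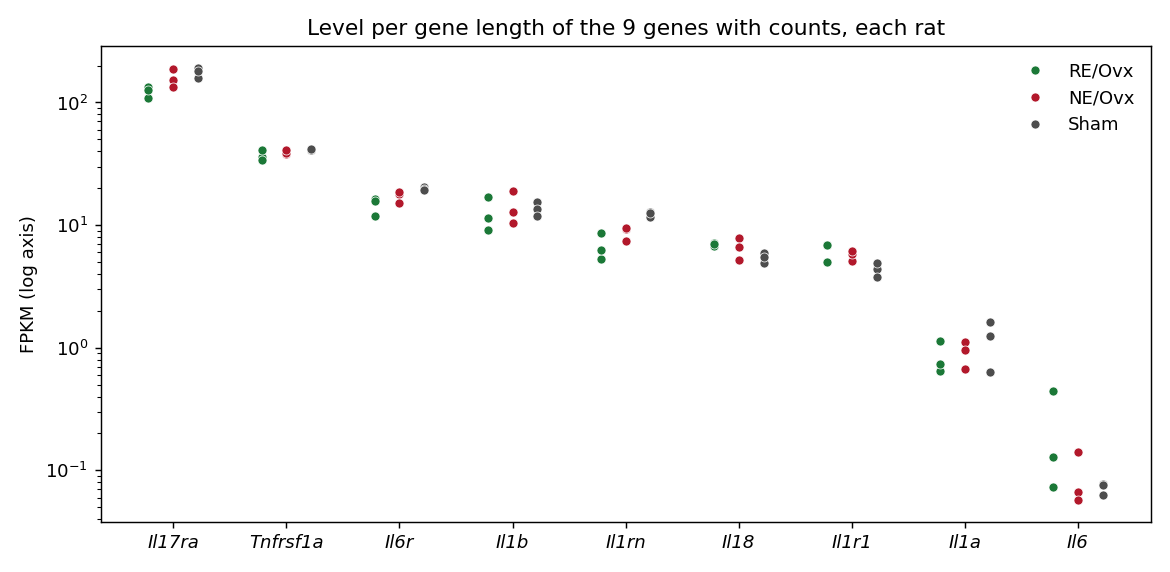
Level of the 9 genes with counts in each rat, in FPKM on a log axis, with a point for each rat and the groups RE/Ovx, NE/Ovx and Sham from left to right within each gene. Il17ra lies between 108 and 193 FPKM, Il1a between 0.631 and 1.63 FPKM and Il6 at or below 0.448 FPKM, and the order of genes by median is the same from left to right as in the text.

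Il6 and Tnf, the ligands most often named in bone loss after ovariectomy, were at the floor of these libraries. Il6 had 2, 1 and 7 counts in RE/Ovx rats 3, 5 and 8, 2, 1 and 1 counts in NE/Ovx rats 6, 8 and 9, and 1 count in each Sham rat. The sum over 9 rats was 17 counts, of which RE/Ovx rat 8 held 7. Only that rat was above the floor of 3 counts per library, so no fold change is given.

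Tnf was listed at 0 counts in all 9 rats. A count of 0 allows up to 3 counts, or 0.182 to 0.250 CPM per library, by counting error alone. Lta and Ltb, which encode the lymphotoxins of the TNF family, had 7 and 11 counts in all. Il17a and Il17f, the ligands of the complex with IL-17RA, were also listed at 0 counts in every rat. Expression of Tnf, Il17a and Il17f was therefore not detectable at this depth, which does not show that it is absent, and whether the counting could assign reads to these genes was not tested. Il11, another ligand of the gp130 family, had 26 counts over the 9 rats, while Osm, encoding oncostatin M, was measured well with 3220.

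Between NE/Ovx and Sham tibias, the question is what removal of the ovaries did to these genes. None of the 8 tested genes passed the adjusted threshold with edgeR, which called 1.23% of all tested genes in this comparison, and 2 of the 8, Il1rn and Il1r1, had an unadjusted p under 0.05, as had 20.5% of all tested genes. With DESeq2 1 of the 8 passed, Il1rn (adjusted p = 0.0451). In CPM the groups did not overlap for 3 genes that were lower in NE/Ovx (Il1rn, Il6r and Tnfrsf1a), a pattern seen in 11.4% of all tested genes. The same held for 1 gene that was higher (Il1r1), as in 13.9%. The median log2 fold change of the 8 genes was -0.16, beside 0.0029 over all tested genes. In whole-bone RNA, fewer cells of a type and less RNA per cell cannot be told apart, which holds for each difference given here.

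Neither IL-1 agonist passed the test after ovariectomy. Il1b was at 13.7, 24.5 and 16.97 CPM in NE/Ovx rats 6, 8 and 9, against 21.0, 18.5 and 15.7 CPM in Sham rats 12, 7 and 8. The highest and the lowest rat both belonged to the NE/Ovx group, and the Sham rats lay between them. The log2 fold change was 0.00016 with a 95% interval of -0.56 to 0.56, which as a fold change runs from 0.681 to 1.47.

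Il1a was at 1.82 ± 0.46 CPM in NE/Ovx rats and 2.38 ± 1.02 CPM in Sham rats (SD, n = 3 each), with overlapping groups and a log2 fold change of -0.38 (standard error of the estimate, SE, 0.40, edgeR adjusted p = 0.630). Il18 was at 5.58, 3.60 and 4.73 CPM in NE/Ovx rats and 3.58, 4.33 and 3.95 CPM in Sham rats, which overlap. Its log2 fold change was 0.23 (SE 0.22, edgeR adjusted p = 0.590).

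Il1rn, the antagonist, had lower values in every NE/Ovx rat than in any Sham rat. It was at 48.2, 48.4 and 38.9 CPM in NE/Ovx rats 6, 8 and 9, against 67.9, 63.1 and 65.4 CPM in Sham rats 12, 7 and 8. The log2 fold change was -0.53 (SE 0.16, 95% interval -0.90 to -0.17), with an unadjusted p of 0.00824 and an adjusted p of 0.117 from edgeR.

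The receptors had log2 fold changes nearer to 0, and none passed the adjusted threshold. Il1r1 was at 48.5, 54.4 and 59.6 CPM in NE/Ovx rats, against 43.3, 37.8 and 47.4 CPM in Sham rats, with a log2 fold change of 0.34 (SE 0.14, edgeR adjusted p = 0.214). Il6r was at 136, 141 and 118 CPM in NE/Ovx rats, against 161, 158 and 151 CPM in Sham rats, with a log2 fold change of -0.25 (SE 0.12, edgeR adjusted p = 0.283). The lowest NE/Ovx rat for Il1r1 was just above the highest Sham rat, and Il6r was lower in each NE/Ovx rat than in every Sham rat.

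Tnfrsf1a was at 89.2, 90.2 and 98.1 CPM in NE/Ovx rats, against 98.5, 101.6 and 98.6 CPM in Sham rats, so that NE/Ovx rat 9 nearly reached the Sham rats. In FPKM the gene overlapped between these groups, with 41.03 in NE/Ovx rat 9 and 40.62 in Sham rat 12. Its log2 fold change was -0.11 (SE 0.083, edgeR adjusted p = 0.505). Il17ra was at 603 ± 97.8 CPM in NE/Ovx rats and 695 ± 64.6 CPM in Sham rats (SD, n = 3 each), with overlapping groups (log2 fold change -0.20, SE 0.14, edgeR adjusted p = 0.435).

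**Figure D2:**
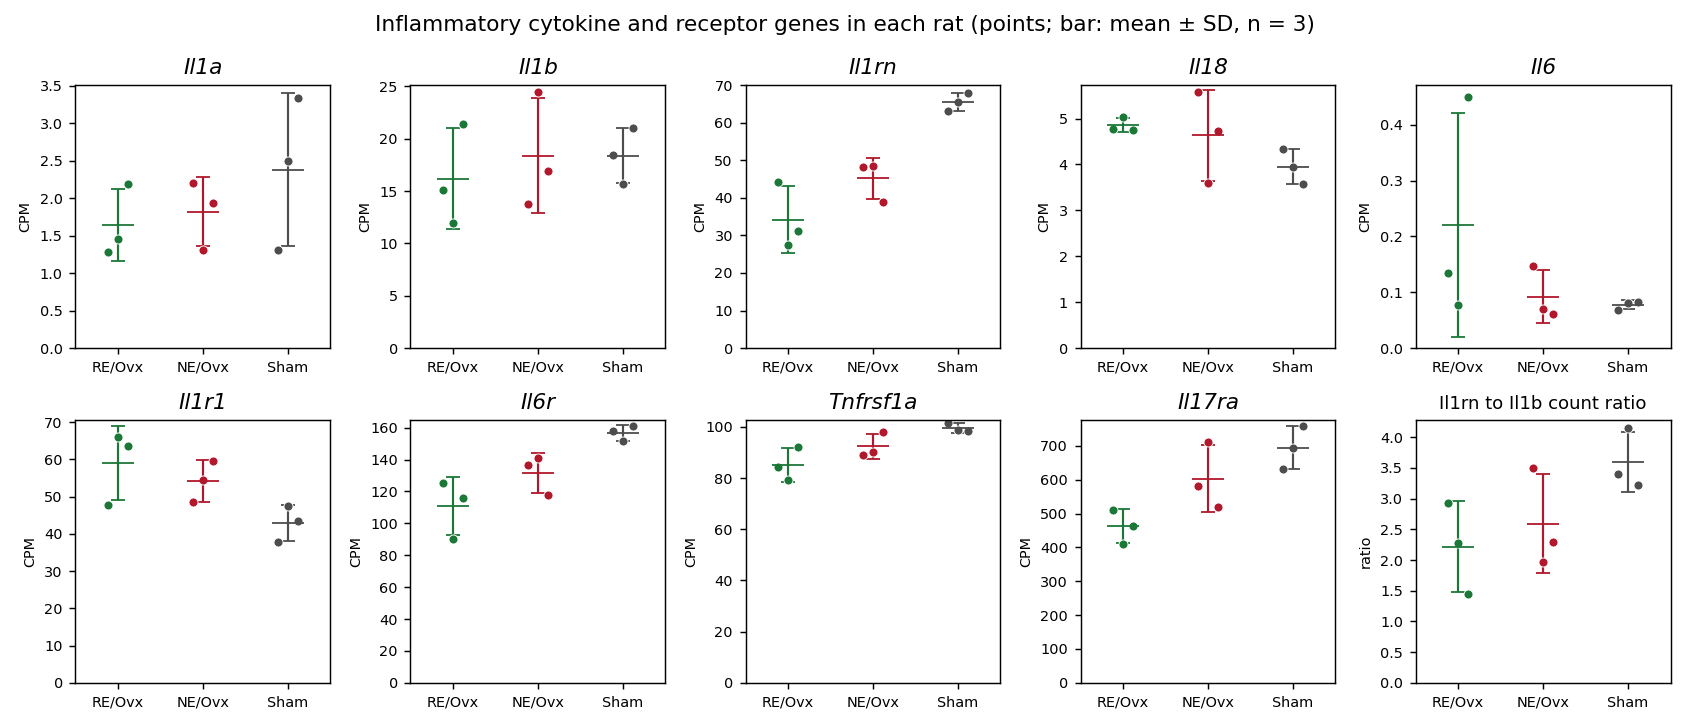
CPM of each of the 9 genes with counts in every rat, and the ratio of Il1rn to Il1b counts, with the groups RE/Ovx, NE/Ovx and Sham from left to right, a point for each rat and bars for the mean and SD of 3 rats. Il1rn, Il6r and Il17ra are lowest in the RE/Ovx group, where Il1rn lies between 27.4 and 44.1 CPM, and Il1b overlaps in all 3 groups.

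Between RE/Ovx and NE/Ovx tibias, the question is what climbing did after ovariectomy. None of the 8 genes passed the adjusted threshold with edgeR, with which 0% of all tested genes passed, and none passed with DESeq2. Il1rn and Il17ra had an unadjusted p under 0.05, as had 5.28% of all tested genes. Il17ra was the only one of the 8 whose groups did not overlap in CPM. It was lower in RE/Ovx, as 6.84% of all tested genes were (4.75% were higher without overlap). The median log2 fold change of the 8 genes was -0.16, beside 0.0079 over all tested genes.

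Il17ra was at 512, 411 and 463 CPM in RE/Ovx rats 3, 5 and 8, against 581, 710 and 519 CPM in NE/Ovx rats 6, 8 and 9. RE/Ovx rat 3 and NE/Ovx rat 9 nearly met, and in FPKM the groups overlapped, with 133.8 in RE/Ovx rat 3 and 133.3 in NE/Ovx rat 9. The log2 fold change was -0.38 (SE 0.14, 95% interval -0.69 to -0.08), with an unadjusted p of 0.0189 and an adjusted p of 0.921 from edgeR. Il1rn was at 44.1, 27.4 and 31.2 CPM in the RE/Ovx rats, of which rat 3 lay within the range of the NE/Ovx rats given above. Its log2 fold change was -0.40 (SE 0.16, unadjusted p = 0.0354, edgeR adjusted p = 0.924).

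The agonists gave no call in this comparison either. Il1b was at 15.1, 11.998 and 21.5 CPM in RE/Ovx rats 3, 5 and 8, with a log2 fold change against NE/Ovx of -0.18 (95% interval -0.74 to 0.37, edgeR adjusted p = 0.983). Il1a was at 1.64 ± 0.48 CPM and Il18 at 4.86 ± 0.16 CPM in the RE/Ovx group (SD, n = 3 each), with log2 fold changes of -0.15 and 0.07. The remaining receptors had log2 fold changes of 0.12 (Il1r1), -0.25 (Il6r) and -0.12 (Tnfrsf1a), with adjusted p of 0.977, 0.948 and 0.968 from edgeR and overlapping groups.

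Between RE/Ovx and Sham tibias, ovariectomy and climbing are combined, and this is where genes of the set fell. Il1rn, Il6r and Il17ra were lower in RE/Ovx and passed the adjusted threshold with edgeR. That is 3 of 8, in a comparison in which 8.06% of all tested genes were called and 3.06% were called lower. An unadjusted p under 0.05 was reached by 5 of the 8 (25.6% of all tested genes). The groups did not overlap for 4 genes that were lower (Il1rn, Il6r, Tnfrsf1a and Il17ra, 13% of all tested genes) and 2 that were higher (Il1r1 and Il18, 14.9%). The median log2 fold change of the 8 genes was -0.36, beside -0.0078 over all tested genes.

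Il1rn changed most among the 8 in this comparison. It was at 44.1, 27.4 and 31.2 CPM in RE/Ovx rats 3, 5 and 8, against 67.9, 63.1 and 65.4 CPM in Sham rats 12, 7 and 8, a 1.91-fold lower level with groups far apart. The log2 fold change was -0.93 (SE 0.16, 95% interval -1.30 to -0.57, edgeR adjusted p = 0.0148). The Sham rats were close to each other, and RE/Ovx rat 3 was the nearest to them.

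Il6r, the binding subunit of the IL-6 receptor, was at 125, 90.4 and 116 CPM in RE/Ovx rats 3, 5 and 8, against 161, 158 and 151 CPM in Sham rats 12, 7 and 8. The log2 fold change was -0.50 (SE 0.12, edgeR adjusted p = 0.0372). Il17ra was at 512, 411 and 463 CPM in RE/Ovx rats, against 760, 630 and 694 CPM in Sham rats, with a log2 fold change of -0.59 (SE 0.14, edgeR adjusted p = 0.0325). For both genes RE/Ovx rat 5 was the lowest of all 9 rats.

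The Il1rn call was lost without RE/Ovx rat 5 (adjusted p = 0.0592) or RE/Ovx rat 8 (adjusted p = 0.0662). The Il6r call held without RE/Ovx rat 3 but was lost without any other rat of the comparison, namely Sham rat 12 (adjusted p = 0.0737), Sham rat 7 (0.0785), Sham rat 8 (0.0621), RE/Ovx rat 5 (0.115) or RE/Ovx rat 8 (0.104). The Il17ra call was lost without Sham rat 12 (adjusted p = 0.0742), Sham rat 8 (0.0643), RE/Ovx rat 5 (0.131) or RE/Ovx rat 8 (0.115), all from edgeR. The direction of these 3 genes stayed the same in every one of these fits, and with library totals as the only scaling Il1rn alone kept its call. That scaling also changed the balance of all calls, to 289 lower and 891 higher, against 445 lower and 726 higher with the TMM factors.

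Il1r1, the signalling receptor of IL-1, was at 47.6, 65.9 and 63.7 CPM in RE/Ovx rats 3, 5 and 8, against 43.3, 37.8 and 47.4 CPM in Sham rats. The log2 fold change was 0.46 (SE 0.14, unadjusted p = 0.00833, edgeR adjusted p = 0.0725), and RE/Ovx rat 3 nearly met the highest Sham rat. DESeq2 called the gene (adjusted p = 0.0354), as did edgeR without RE/Ovx rat 3 (adjusted p = 0.0185). No other refit called it. The edgeR adjusted p rose to 0.247 without RE/Ovx rat 5, 0.230 without RE/Ovx rat 8 and 0.188 without Sham rat 7. Tnfrsf1a was at 84.2, 79.1 and 92.2 CPM in RE/Ovx rats, against 98.5, 101.6 and 98.6 CPM in Sham rats, with a log2 fold change of -0.23 (SE 0.083, edgeR adjusted p = 0.123).

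Il1b did not separate these groups, with a log2 fold change of -0.18 (95% interval -0.74 to 0.38, edgeR adjusted p = 0.703). Il1a had one of -0.52 (SE 0.40, edgeR adjusted p = 0.459) with overlapping groups. Il18 was at 4.78, 5.04 and 4.75 CPM in RE/Ovx rats, all above the 3.58, 4.33 and 3.95 CPM of the Sham rats, but its log2 fold change of 0.29 (SE 0.22) had an adjusted p of 0.436 from edgeR.

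**Figure D3:**
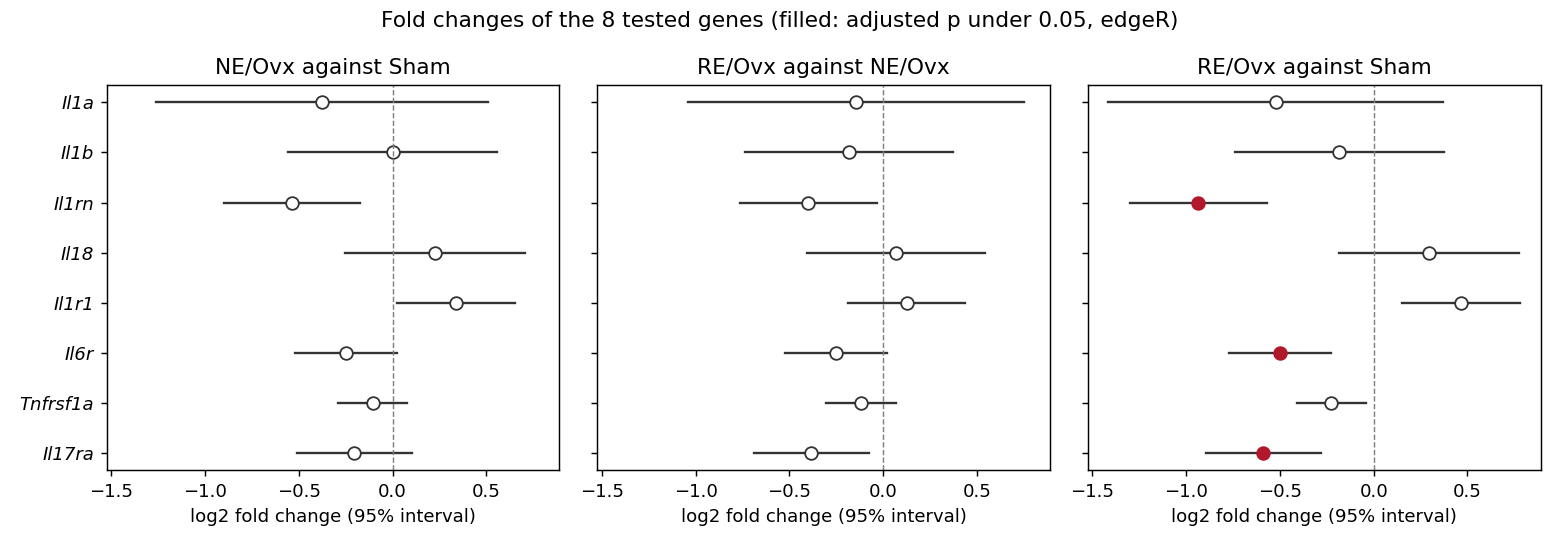
Log2 fold changes of the 8 tested genes with 95% intervals in the comparisons NE/Ovx against Sham, RE/Ovx against NE/Ovx and RE/Ovx against Sham, with filled points for an adjusted p under 0.05 from edgeR. Filled points appear only for RE/Ovx against Sham, at -0.93 for Il1rn, -0.50 for Il6r and -0.59 for Il17ra, and the interval of Il1b includes 0 in each panel.

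Markers of several marrow and bone cell types also differed between the groups. Of 15 tested neutrophil markers, 8 were lower in RE/Ovx than in Sham by the adjusted threshold, which 3.06% of all tested genes met in that direction, and all 15 had negative log2 fold changes (median -0.73). Fpr1, a receptor for bacterial peptides, changed by -1.12 on the log2 scale (adjusted p = 0.00645) and Camp, a granule peptide, by -0.97 (adjusted p = 0.0117), both from edgeR. Between NE/Ovx and Sham none of the 15 passed, all were negative (median -0.50), and 7 had an unadjusted p under 0.05, as had 20.5% of all tested genes. The summed level of these markers was 4292 to 6684 CPM in RE/Ovx rats, 5885 to 6778 CPM in NE/Ovx rats and 7869 to 13215 CPM in Sham rats. Of the 16 neutrophil markers listed none was at 0 in all rats, and Ltf, a granule protein, had 57 counts over the 9 rats and was not tested.

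The mean log2 level of the neutrophil markers, centred over the rats, correlated with Tnfrsf1a (r = 0.89), Il6r (r = 0.83), Il1rn (r = 0.81) and Il17ra (r = 0.65), and ran opposite to Il1r1 (r = -0.79), over the 9 rats. Il1b followed it weakly (r = 0.33). Within the Sham group Il1rn, Il6r and Il17ra did not follow this order. Rat 7 had the highest neutrophil level (0.72) and the lowest Il1rn and Il17ra of the 3 rats. Rat 12 had the lowest neutrophil level (0.12) and the highest values of Il1rn, Il6r and Il17ra. Tnfrsf1a did follow it, at 98.48, 98.57 and 101.6 CPM in Sham rats 12, 8 and 7. The markers also differed among themselves in Sham rats 12, 7 and 8. Csf3r was at 321, 279 and 302 CPM in these rats, the same order as Il1rn and Il17ra. Elane was at 71.1, 200 and 134 CPM, the reverse order.

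**Figure D4:**
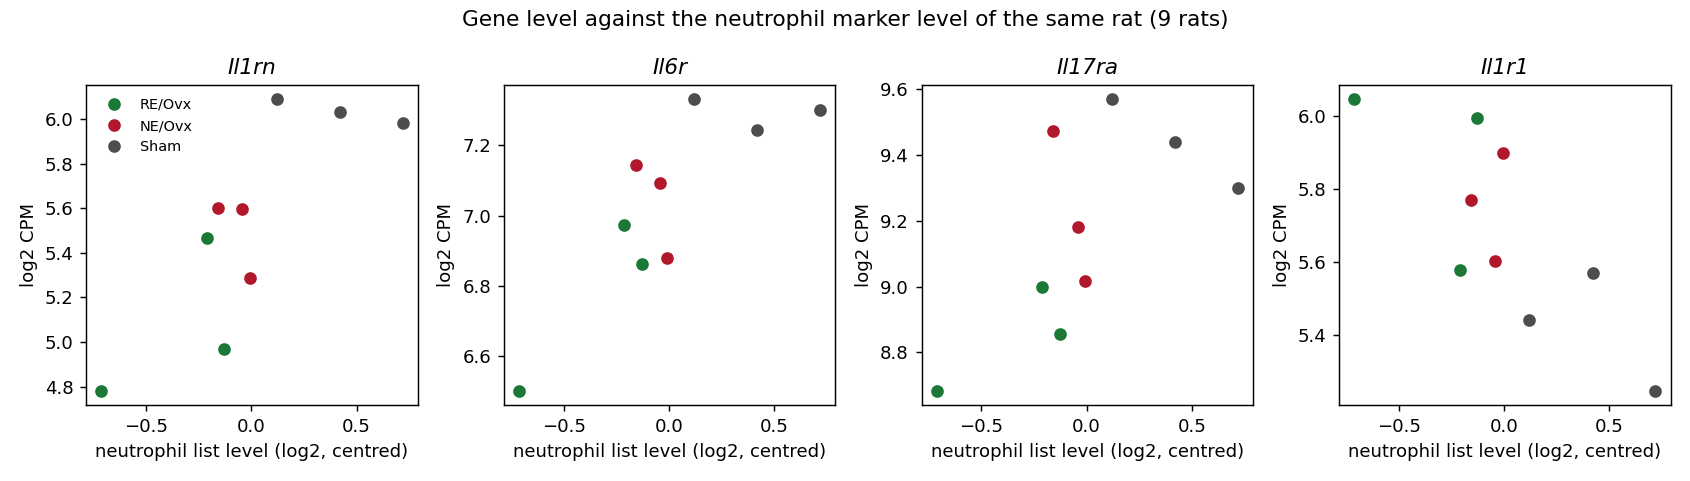
Log2 CPM of Il1rn, Il6r, Il17ra and Il1r1 against the neutrophil marker level of the same rat, the mean of log2 CPM of 15 markers centred over the 9 rats, with a point for each rat. Levels run from -0.71 in RE/Ovx rat 5 to 0.72 in Sham rat 7, and points of the Sham group lie at the right of every panel.

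Of 12 osteoblast markers, 4 were higher in RE/Ovx than in Sham by the adjusted threshold (median log2 fold change 0.85), where 5% of all tested genes were called higher. In NE/Ovx against Sham 3 of the 12 were higher (median 0.58), where 1.03% of all tested genes were. In each of these comparisons 11 of the 12 had positive log2 fold changes. Their level correlated with Il1r1 (r = 0.91) and ran opposite to Il1rn (r = -0.87), Il6r (r = -0.82) and Il17ra (r = -0.69) over the 9 rats. Of 16 adipocyte markers, 13 were higher in RE/Ovx than in Sham (median 1.60) and 6 in NE/Ovx than in Sham (median 1.35). Their summed level was 899 to 1095 CPM in RE/Ovx rats, 716 to 898 CPM in NE/Ovx rats and 441 to 594 CPM in Sham rats. The mean log2 level of the adipocyte markers ran opposite to Il1rn (r = -0.87), Il17ra (r = -0.80) and Il6r (r = -0.76). It correlated with Il1r1 (r = 0.68). Of 15 B cell markers, 4 were higher in RE/Ovx than in Sham (median 1.22).

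Monocytes and macrophages also make IL-1 and its antagonist. The summed level of their 13 tested markers was 3069 to 3598 CPM in RE/Ovx rats, below the 4040 to 4824 CPM of NE/Ovx rats and the 4766 to 7212 CPM of Sham rats. Of these 13, 2 were called lower in RE/Ovx than in Sham, beside 3.06% of all tested genes. They were Lyz2, a lysozyme (log2 fold change -0.92), and Fcgr1a, an Fc receptor (-0.64), with adjusted p of 0.0166 and 0.0299 from edgeR. Lyz2 alone averaged 2723 CPM in RE/Ovx rats and 5136 CPM in Sham rats, and 8 of the 13 had negative log2 fold changes (median of the list -0.06). The mean log2 level of the list, which weights its genes equally, had an r of 0.03 with Il1rn and -0.27 with Il1b over the 9 rats, and Marco was at 0 in all rats.

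Further lists held calls for RE/Ovx against Sham, where 3.06% of all tested genes were called lower and 5% higher. Of 10 megakaryocyte markers 3 were lower (median -0.41), and of 10 osteoclast markers 2 were lower (median -0.04). Of 12 T and NK cell markers 1 was lower, while 11 of the 12 had positive log2 fold changes (median 0.40). Of 12 stromal and endothelial markers 3 were higher (median 0.36). Their level ran opposite to Il17ra (r = -0.81), Il1rn (r = -0.78) and Il6r (r = -0.68), and correlated with Il1r1 (r = 0.64). None of 12 erythroid markers passed, and all 12 were negative (median -0.29).

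Skeletal muscle markers had the median farthest from 0 of these lists between RE/Ovx and NE/Ovx (-0.95). None of the 12 passed with edgeR, but all were negative, 8 had an unadjusted p under 0.05, beside 5.28% of all tested genes, and 10 were lower without overlap, beside 6.84%. For RE/Ovx against Sham none passed, all 12 were negative (median -0.77), and Sham rat 8, at 1956 CPM in sum, was the lowest of the 9 rats. The muscle level had r of 0.27 with Il1rn, 0.27 with Il6r and 0.33 with Il17ra over the 9 rats. The part of these cell types in the changes of Il1rn, Il6r, Il17ra and Il1r1 was not tested.

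The balance of antagonist and agonist was read within each library as the ratio of Il1rn to Il1b counts, which does not depend on how libraries are scaled. Counts are not divided by gene length (5.18 kb for Il1rn and 1.32 kb for Il1b, as implied by the FPKM values). The ratio can therefore be compared between rats but does not show which RNA was more abundant. In FPKM Il1rn was below Il1b in every rat except Sham rat 8 (12.5 against 11.9). It was 2.92, 2.28 and 1.45 in RE/Ovx rats 3, 5 and 8, 3.51, 1.98 and 2.29 in NE/Ovx rats 6, 8 and 9, and 3.23, 3.41 and 4.15 in Sham rats 12, 7 and 8. All RE/Ovx rats were below all Sham rats, while NE/Ovx rat 6 lay within the Sham range.

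On the log2 scale the mean ratio was 1.09 ± 0.51 in the RE/Ovx group, 1.33 ± 0.43 in the NE/Ovx group and 1.84 ± 0.19 in the Sham group (SD, n = 3 each). The difference of RE/Ovx from Sham was -0.75 (exact permutation test, two-sided, p = 0.1, the smallest this design allows, and 0.3 adjusted over the 3 comparisons). NE/Ovx minus Sham was -0.51 (exact p = 0.3, adjusted 0.45) and RE/Ovx minus NE/Ovx was -0.24 (exact p = 0.5, adjusted 0.5). The last difference turned to 0.0016 without NE/Ovx rat 6 and to 0.038 without RE/Ovx rat 8.

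Genes that encode other parts of these pathways were read from 6 lists, whose counts for RE/Ovx against Sham stand beside the 8.06% of all tested genes called there (3.06% lower and 5% higher). In the IL-1 and IL-18 list, 3 of 23 tested genes (13%) passed for RE/Ovx against Sham, and all 3 fell (median log2 fold change of the list -0.20). Il18rap and Il18r1 encode the subunits of the IL-18 receptor, and Nlrc4 an inflammasome sensor of bacterial proteins. Il18rap was at 41.3 ± 8.14 CPM in RE/Ovx rats and 72.2 ± 7.39 CPM in Sham rats (SD, n = 3 each, log2 fold change -0.80, edgeR adjusted p = 0.0212). Il18r1 changed by -0.60 on the log2 scale (adjusted p = 0.0428) and Nlrc4 by -0.66 (adjusted p = 0.0325), both from edgeR. The receptor subunits of IL-18 were thus lower in RE/Ovx than in Sham while the ligand Il18 gave no call.

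No gene of this list passed for NE/Ovx against Sham, where the smallest p belonged to Gsdmd, the pore former that releases IL-1 beta (log2 fold change 0.63, edgeR adjusted p = 0.0690), and Il1r2, the decoy receptor that binds IL-1 without signalling (log2 fold change -0.71, edgeR adjusted p = 0.114). Il1r2 was at 24.9, 16.0 and 13.4 CPM in RE/Ovx rats, 17.6, 21.3 and 16.6 CPM in NE/Ovx rats, and 27.3, 28.9 and 34.3 CPM in Sham rats. Every ovariectomized rat was below every Sham rat for this decoy, but it did not pass for RE/Ovx against Sham (edgeR adjusted p = 0.0615). None of the 23 passed for RE/Ovx against NE/Ovx, and Il18rap (log2 fold change -0.36) and Il36b, an IL-1 family agonist (-0.62), had the smallest p, with an adjusted p of 0.924 each from edgeR.

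In the IL-6 and gp130 list, 3 of 20 tested genes (15.0%) passed for RE/Ovx against Sham, 2 higher and 1 lower (median of the list 0.04). The higher ones were receptors that pair with gp130. Osmr, the oncostatin M receptor, was at 21.3, 39.2 and 35.0 CPM in RE/Ovx rats 3, 5 and 8, against 17.4, 14.6 and 17.1 CPM in Sham rats (log2 fold change 0.96, edgeR adjusted p = 0.0340). Lifr, the receptor of leukemia inhibitory factor, had a log2 fold change of 0.59 (edgeR adjusted p = 0.0303). Jak2, a kinase bound to cytokine receptors, was lower (log2 fold change -0.32, edgeR adjusted p = 0.0368).

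None of the 20 passed for NE/Ovx against Sham, where Jak2 (log2 fold change -0.36, edgeR adjusted p = 0.0579) and Osmr (0.79, adjusted p = 0.106) had the smallest p. Exercised and non-exercised ovariectomized rats gave no call, and Stat3, the transcription factor downstream of gp130 (log2 fold change -0.24), and Osm (-0.84) had the smallest p, with an adjusted p of 0.921 each from edgeR. Osm was at 14.1, 13.9 and 19.9 CPM in RE/Ovx rats, 33.4, 21.0 and 31.2 CPM in NE/Ovx rats, and 48.0, 22.1 and 28.2 CPM in Sham rats. Each RE/Ovx rat was thus below every other rat for this ligand, which did not pass for RE/Ovx against Sham either (log2 fold change -1.03, edgeR adjusted p = 0.0553).

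Of the TNF list, 1 of 17 tested genes (5.88%, below the share of all tested genes) passed for RE/Ovx against Sham, Birc3, an inhibitor of cell death recruited to TNF receptors, which was higher (log2 fold change 0.94, edgeR adjusted p = 0.0388; median of the list -0.07). None passed for NE/Ovx against Sham, where Traf5, an adaptor of TNF family receptors (log2 fold change 0.71, adjusted p = 0.0743), and Birc3 (0.79, adjusted p = 0.113) had the smallest p from edgeR. None passed for RE/Ovx against NE/Ovx, where Rhbdf2, which carries the TNF-releasing protease ADAM17 to the cell surface, had a log2 fold change of -0.41 and Casp8, a protease of the death receptor pathway, one of -0.28, with adjusted p of 0.921 and 0.924 from edgeR.

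Of the IL-17 and IL-23 list, 2 of 12 tested genes (16.7%) passed for RE/Ovx against Sham, and both were higher, unlike the member Il17ra (median of the list 0.38). Traf3ip2, the adaptor that IL-17 receptors need for signalling, was at 13.6 ± 2.56 CPM in RE/Ovx rats and 8.54 ± 0.84 CPM in Sham rats (SD, n = 3 each, log2 fold change 0.67, edgeR adjusted p = 0.0408). Il17re, a receptor of IL-17C, was low, at 2.89 ± 0.81 CPM in RE/Ovx rats and 0.632 ± 0.27 CPM in Sham rats (log2 fold change 2.16, edgeR adjusted p = 0.0301). These same genes had the smallest p for NE/Ovx against Sham without passing (Traf3ip2 0.61, adjusted p = 0.0994, and Il17re 1.76, adjusted p = 0.102, from edgeR). Between RE/Ovx and NE/Ovx none passed, and the smallest p belonged to Zc3h12a, an RNase that degrades cytokine mRNA (log2 fold change -0.37), and Il17d (0.76), with adjusted p of 0.921 and 0.956 from edgeR.

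None of 19 NF-kappaB core genes passed in any of the 3 comparisons, and 5 had an unadjusted p under 0.05 for RE/Ovx against Sham, as had 25.6% of all tested genes. The smallest p for RE/Ovx against Sham belonged to Nfkb2, a subunit of the noncanonical arm (log2 fold change 0.32, adjusted p = 0.0930), and Traf3, which restrains that arm (0.23, adjusted p = 0.141, both from edgeR). For NE/Ovx against Sham it was Nfkbie, an inhibitor of NF-kappaB (0.47, adjusted p = 0.0766), and Nfkb2 (0.33, adjusted p = 0.136), and for RE/Ovx against NE/Ovx Bcl3, a nuclear cofactor (-0.26, adjusted p = 0.924), and Ikbkb, the activating kinase (-0.23, adjusted p = 0.925), all from edgeR. The medians of the list lay between -0.10 and 0.05 on the log2 scale.

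Of 19 tested genes known to be induced by these cytokines, 4 (21.1%) passed for RE/Ovx against Sham, all lower (median of the list -0.09), in rats in which neutrophil markers were also lower, as given above. Hp, the acute phase protein haptoglobin, changed by -0.77 on the log2 scale (adjusted p = 0.0157), and Sod2, the mitochondrial superoxide dismutase, by -0.72 (adjusted p = 0.0357), both from edgeR. Cebpb and Cebpd, transcription factors of the acute phase, had log2 fold changes of -0.59 each (adjusted p = 0.0340 and 0.0381 from edgeR). Tnfsf11, encoding the osteoclast factor RANKL, had 2 counts in all 9 rats, and Csf3 had 0. Whether the counting could assign reads to Tnfsf11 and Csf3 was not tested, so these counts do not show that their RNA was absent.

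For NE/Ovx against Sham none of the 19 passed, and the smallest p belonged to Lbp, which binds bacterial lipopolysaccharide (log2 fold change 0.33, edgeR adjusted p = 0.0832), and Hp (-0.52, adjusted p = 0.0891). None passed for RE/Ovx against NE/Ovx either, and the smallest p belonged to Cebpb (-0.51) and Lbp (-0.25), with an adjusted p of 0.921 each from edgeR.

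Across the 9 rats the members formed a few groups of like pattern, given here as a description of points that share group, tissue and library. Il1rn correlated with Il6r (Pearson r = 0.96 over 9 rats) and Il17ra (r = 0.92), and Il6r with Il17ra (r = 0.93). Il1r1 ran opposite to Il1rn (r = -0.90) and Il6r (r = -0.86). Il1b correlated weakly with its antagonist Il1rn (r = 0.31) and its receptor Il1r1 (r = -0.15). Its r was higher with Il17ra (0.54), Tnfrsf1a (0.52) and Il6r (0.51), and it ran opposite to Il18 (r = -0.71). Il18 also ran opposite to Il17ra (r = -0.78).

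Among all genes with a mean log2 CPM of at least 1, those with the most similar profile to Il6r were Ffar2, a receptor of short-chain fatty acids (r = 0.988), Mefv, encoding pyrin (r = 0.987), and Csf3r, the receptor of the granulocyte growth factor G-CSF (r = 0.986). Il17ra was nearest to Hk3, a hexokinase (r = 0.991), Cyp4f18 (r = 0.991) and Zdhhc18 (r = 0.990), and Il1rn to Adpgk (r = 0.988), Trim13 (r = 0.984) and Cmtm6 (r = 0.982). Il1r1 was nearest to Gli3, a transcription factor of hedgehog signalling (r = 0.977), Pdgfa, a growth factor (r = 0.970), and Lrp6, a Wnt co-receptor (r = 0.968). Tnfrsf1a was nearest to Mfsd9 (r = 0.979), Ube2k (r = 0.947) and Brs3 (r = 0.945), and Il18 to St6gal1 (r = 0.968), Fam115c (r = 0.936) and Snapc5 (r = 0.929). The profiles nearest to Il1b were those of Scd2 (r = 0.925), C1H19orf84 (r = 0.915) and Cables1 (r = 0.906), and those nearest to Il1a those of Pop1 (r = 0.905), Dzf17 (r = 0.904) and LOC103690008 (r = 0.883). The Il1a profile rests on 19 to 40 counts per rat. All these r are the highest picked from many genes over only 9 rats, and how high such picks run by chance was not tested.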

How the data were processed

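RNA from the left tibia of 9 rats was analysed from the values the authors deposited for each library. The authors deposited whole-number read counts per gene, and also an FPKM value per gene. Per the submitters' notes, Bowtie2, DESeq, HISAT2, StringTie and Trimmomatic were used with the build Rnor_6.0, and no versions are stated. The kit keeps the strand, but its use in counting is not stated, so reads of overlapping or antisense genes may be mixed. Samples were grouped by their labels, and rats are named by the animal number in the titles.

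Counts were tested in R 4.3.3 with edgeR 4.0.16 (default filter on low counts, TMM factors from 0.962 to 1.04, quasi-likelihood test) in 1 fit of 9 libraries with group as the only term, with Benjamini-Hochberg adjustment over 14520 genes. The library totals of 12297992 to 16671533 counts limit the precision of low genes, and limits from a count of 0 cover counting error only. Correlations used log2 CPM with a prior count of 2. The Il1rn to Il1b ratio used counts with 0.5 added and an exact permutation test in scipy 1.17.1. RefSeq tables of GRCr8 gave promoter sequences, matched by symbol (the NF-kappaB consensus was added after the first motif matches were seen), and no coordinates were converted between builds.

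Named genes were all 10 members, up to 4 genes of each pathway list past the threshold with the smallest p, or the 2 with the smallest p where none passed, and the 3 genes most like each tested member. Single markers, ligands at or near 0 and the genes of the closing observations were picked after their values were seen. The members and lists were chosen with earlier results of these data known. Alternatives were DESeq2 1.42.0, other scalings and filters, edgeR on the 2 groups compared, limma 3.58.1 on log2 FPKM with a pseudocount of 1 or 0.1, and leaving out each rat.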

Additional observations from a re-analysis of the deposited data

How the results depend on the processing

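No paired analysis was possible because the groups share only rat number 8, which names different animals. Over all genes, the number called for NE/Ovx against Sham was 178 with edgeR, 998 with DESeq2 and 112 with limma on log2(FPKM + 1), and 9 to 181 without a rat in turn (9 when NE/Ovx rat 8 was left out, 10 when NE/Ovx rat 9 was). Between RE/Ovx and NE/Ovx edgeR called 0, with 767 genes at an unadjusted p under 0.05, DESeq2 5 and edgeR on the 2 groups 1. For RE/Ovx against Sham edgeR called 1171, DESeq2 1954 and edgeR on the 2 groups 559, and 103 to 1749 without a rat in turn (103 without RE/Ovx rat 5 or rat 8). Of the 8 members, DESeq2 called 1 for NE/Ovx against Sham. Where edgeR called 3, RE/Ovx against Sham, library totals and each of the limma fits (pseudocounts of 1 and 0.1, and FPKM of at least 1 in 3 libraries) called 1, and 0 to 4 passed without a rat in turn (0 without RE/Ovx rat 5 or rat 8).

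Among 360 refits of single members 9 changed sign, none of them of a called value. Il1b for NE/Ovx against Sham was -0.013 with median-of-ratios factors and -0.014 with DESeq2, and -0.26 to 0.17 without a rat in turn. Between RE/Ovx and NE/Ovx, without a rat in turn, Il1b ran from -0.45 to 0.076, Il1a from -0.42 to 0.0085, Il18 from -0.084 to 0.22, and the log2 ratio of Il1rn to Il1b from -0.47 to 0.038. In RE/Ovx against Sham no member changed sign in 120 refits. A call was lost in 20 of them and gained in 2 (Il1r1). Only the called genes Il1rn, Il6r and Il17ra, with 15 refits each, could lose a call. The losses were most frequent for Il6r and least frequent for Il1rn. In edgeR on the 2 groups Il6r had an adjusted p of 0.0606. The cause of these differences was not tested, except that a fit without a rat has fewer samples. Depth limits Il6, with 17 counts over 9 rats, and Il1a, whose 243 counts leave wide intervals.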

Other observations

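Some other genes of the lists had patterns that no comparison above describes, and these were chosen after their values were seen. Nos2, the inducible nitric oxide synthase that cytokines switch on, was at 10.8, 4.28 and 13.2 CPM in RE/Ovx rats 3, 5 and 8, 26.3, 14.9 and 20.8 CPM in NE/Ovx rats 6, 8 and 9, and 32.5, 15.9 and 23.7 CPM in Sham rats 12, 7 and 8. Each RE/Ovx rat was below every other rat, but the gene did not pass for RE/Ovx against NE/Ovx (log2 fold change -1.12, adjusted p = 0.921 from edgeR) or against Sham (log2 fold change -1.33, adjusted p = 0.0622 from edgeR).

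Il33, an alarmin of the IL-1 family, was at 10.8, 12.8 and 25.1 CPM in RE/Ovx rats, 10.1, 13.4 and 12.4 CPM in NE/Ovx rats, and 10.6, 13.1 and 7.66 CPM in Sham rats. RE/Ovx rat 8, the rat with 7 of the 17 counts of Il6, had the highest Il33 level of the 9.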
